A study of Bos taurus with 34 samples.

Results

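TREM2 and 9 marker genes of liver macrophages (CD163, MARCO, VSIG4, CD5L, TIMD4, CSF1R, MSR1, C1QA and CD68) were described in bovine liver RNA, as 10 of the 14161 genes in a deposited comparison of slick with free cattle. The genes were looked up by symbol, and all 10 were found once in the comparison and once in the gene models of each count table. They were chosen by symbol with fold changes of this same comparison already known, TREM2 for its large fall. Values of that comparison are therefore given as a description, and nothing rests on them as a test.

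The series holds 34 liver samples of Senepol-labelled cattle with 0, 1 or 2 copies of the SLICK1 allele. SLICK1 is a truncating variant of PRLR, the prolactin receptor gene, and gives a short coat. SLICK animals (10 TruSeq samples) inherited 1 allele copy from the bulls Blanco or Lone Ranger, with 5 daughters each, and FREE animals (8 TruSeq samples) inherited 0 copies, with 1 daughter of Blanco and 7 of Lone Ranger. S2 animals (11 SMARTer samples) carried 2 copies and S1 animals (5 SMARTer samples) 1 copy. No group names a further treatment, and the labels used here state no ages. Library columns of the tables are headed by animal numbers that match no sample label, so no value per animal is given, and neither S2 against S1 nor the joint variation of TREM2 with the other markers from animal to animal was analysed here. Positive fold changes are read as higher in SLICK from the table's name, and the authors' model terms, sire among them, are not stated in the sources used here. With 7 of 8 FREE daughters from Lone Ranger, genotype and sire are only partly separable. The tissue label matched its markers: all 12 hepatocyte markers averaged 7.92 log2 CPM (a count scaled to the size of its library) or more, up to 15.87 for albumin (ALB), per the authors' deposited table.

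Kupffer cells are the resident macrophages of the liver sinusoids. They clear bacteria, spent erythrocytes and apoptotic cells from portal blood with scavenger and complement receptors, and their survival depends on the receptor CSF1R. TREM2 is a lipid-sensing receptor of myeloid cells that signals through the adaptor TYROBP. In human and mouse liver it is best known from macrophages that gather around lipid-laden or injured tissue and carry GPNMB, SPP1, CD9 and FABP5, and it is low in undisturbed Kupffer cells. In bulk liver RNA, fewer cells of a type and less RNA per cell cannot be told apart.

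TREM2 was the member with a large difference between the genotypes. TREM2 fell by 2.14 log2 units in SLICK liver per the authors' deposited table, which is 4.42-fold lower. The standard error implied by the authors' F score was 0.46, and the implied 95% interval ran from -3.11 to -1.17. Its unadjusted p was 0.000188 and its adjusted p 0.0486 per the authors' deposited table, just under the threshold of 0.05. That adjusted p was shared by 41 genes, and the next larger value was 0.0511. By the size of its fall TREM2 stood at rank 34 of the 14161 genes. TREM2 (ENSBTAG00000007275) lies on the - strand of chromosome 23, from 15082501 to 15105534 (ARS-UCD1.2), and its gene model has 1768 exonic bases in 5 separate blocks.

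None of the other 9 members passed an adjusted p of 0.05 per the authors' deposited table. Their log2 fold changes ran from -0.28 to 0.29 with a median of 0.05, against a median of -0.01 over all genes. Of the 9, 4 were negative and 5 positive, and the implied intervals of 8 held 0. No implied interval of these 9 reached below -0.61 or above 0.61. None overlapped that of TREM2, which follows in part from the choice of TREM2 for its large fall. The difference between TREM2 and the others was not tested, because values of single animals were not used. Over all 10 members, 1 was lower and 0 were higher at an adjusted p under 0.05, where 0.41% of all genes were lower and 0.0918% were higher. At an unadjusted p under 0.05, 2 members were lower and 0 higher, where 8.79% of all genes were lower and 7.22% were higher. These counts are descriptions, since the members were picked with the comparison known.

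The scavenger receptors among the members differed little. CD163, which takes up haemoglobin bound to haptoglobin, had a log2 fold change of 0.05 (implied SE 0.11, adjusted p 0.871) per the authors' deposited table. MARCO, a class A scavenger receptor for bacteria and particles, had a log2 fold change of 0.12 (implied SE 0.17, adjusted p 0.812) per the authors' deposited table. MSR1, the class A receptor for modified lipoproteins, had a log2 fold change of -0.18 (implied SE 0.09, adjusted p 0.378) per the authors' deposited table. The fold changes of CD163 and MARCO were smaller than or close to their own errors, and that of MSR1 was nearly 2 errors from 0 without passing. CD163 lies on chromosome 5 from 101786078 to 101818046 (ENSBTAG00000019669), MARCO on chromosome 2 from 70736152 to 70769645 (ENSBTAG00000018473) and MSR1 on chromosome 27 from 20909874 to 20990586 (ENSBTAG00000002885).

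VSIG4 and TIMD4, members that bind opsonised or apoptotic cargo, had small negative values. VSIG4, the complement receptor of the immunoglobulin superfamily that marks Kupffer cells, had a log2 fold change of -0.25 (implied SE 0.15, adjusted p 0.442) per the authors' deposited table. TIMD4, a phosphatidylserine receptor of long-lived resident macrophages, had a log2 fold change of -0.17 (implied SE 0.21, adjusted p 0.762) per the authors' deposited table. Neither difference exceeded 2 of its implied errors. The wider list of phosphatidylserine and apoptotic cell uptake did not share the sign, with a median of 0.06 and 4 of 15 measured genes negative. VSIG4 lies on chromosome X from 94489440 to 94560163 (ENSBTAG00000015769) and TIMD4 on chromosome 7 from 68286089 to 68314227 (ENSBTAG00000013185). On the opposite strand, the TIMD4 model overlaps ENSBTAG00000030297, which is not in the comparison. Whether the TruSeq reads were counted by strand is not stated in the sources used here, so reads of that gene could be counted with TIMD4.

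The secreted members and the growth factor receptor had small positive values. CD5L, a secreted macrophage protein that binds lipids and inhibits apoptosis, had a log2 fold change of 0.29 (implied SE 0.15, adjusted p 0.374) per the authors' deposited table. C1QA, a chain of the complement component that opens the classical pathway, had a log2 fold change of 0.20 (implied SE 0.12, adjusted p 0.458) per the authors' deposited table. CSF1R, the receptor on which Kupffer cell survival depends, had a log2 fold change of 0.22 (implied SE 0.18, adjusted p 0.612) per the authors' deposited table. All 3 pointed opposite to TREM2 and none passed. CD5L lies on chromosome 3 from 12508921 to 12526879 (ENSBTAG00000022514), C1QA on chromosome 2 from 130189849 to 130193588 (ENSBTAG00000007153) and CSF1R on chromosome 7 from 61380054 to 61411558 (ENSBTAG00000012771).

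CD68, a lysosomal glycoprotein used as a general macrophage marker, had the next lowest value after TREM2. Its log2 fold change was -0.28 (implied SE 0.13, implied 95% interval -0.55 to -0.02) per the authors' deposited table. Its unadjusted p of 0.0391 lay under 0.05, but its adjusted p was 0.290 per the authors' deposited table. The gap between CD68 and TREM2 was 1.86 log2 units. CD68 (ENSBTAG00000000133) lies on chromosome 19 from 27312058 to 27314128, with the end of EIF4A1 0.5 kb before it on the same strand. EIF4A1, a translation initiation helicase, had a nearly equal log2 fold change of -0.29 with an adjusted p of 0.125 per the authors' deposited table. The next nearest genes of the comparison, MPDU1, SOX15, SENP3 and FXR2, had 0.10, 0.17, -0.03 and 0.12 per the authors' deposited table. Whether the values of CD68 and EIF4A1 are linked was not tested.

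**Figure D1:**
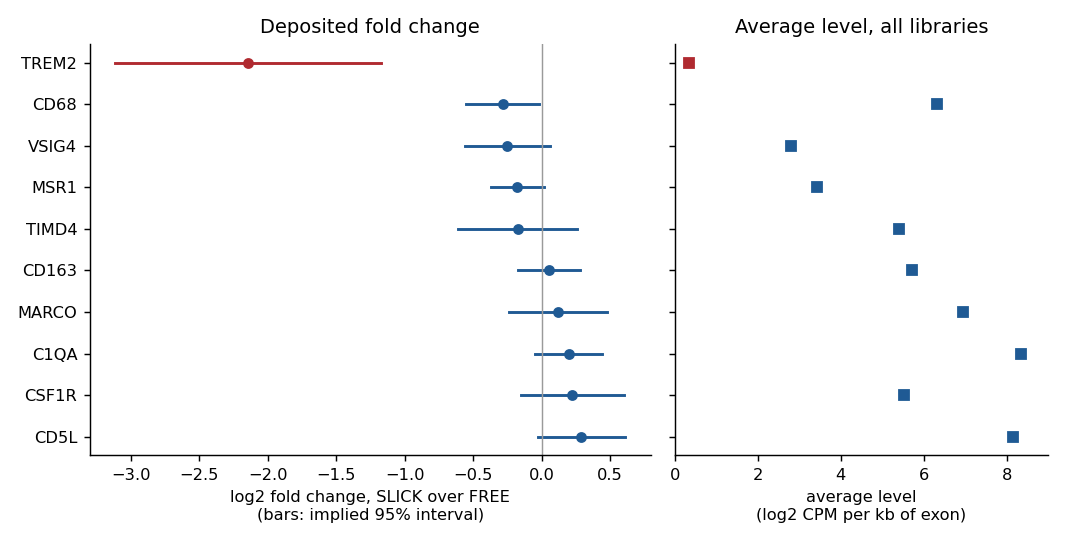
Left, the log2 fold change of SLICK over FREE for each member with its implied 95% interval. Right, the average level per kilobase of exon over all libraries of the comparison. TREM2, chosen for its large fall, lies at -2.14 and 0.35 log2 CPM per kb. The intervals of the other 9 members lie between -0.61 and 0.61.

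TREM2 was also the member with the lowest RNA level. Per kilobase of exon, the average level over all libraries was 0.35 log2 CPM for TREM2, from the level per the authors' deposited table and the deposited gene length. The next member in order was VSIG4 at 2.81, followed by MSR1 at 3.43, TIMD4 at 5.40, CSF1R at 5.52, CD163 at 5.72, CD68 at 6.31, MARCO at 6.94, CD5L at 8.15 and C1QA at 8.35 log2 CPM per kb. Here the secreted proteins CD5L and C1QA were highest, and 2.46 log2 units separated TREM2 from VSIG4. The spread of these levels between animals was not analysed here, so neighbours in the order cannot be said to differ beyond it. Among the 1065 genes with an average level within 0.5 log2 CPM of TREM2, 3 had a fold change at least as negative, TREM2 included.

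The wider list of resident Kupffer cell genes gave the same picture as the members it holds. All 20 of its genes were measured, of which 9 are members. At an adjusted p under 0.05, 0 were lower and 0 higher per the authors' deposited table, and at an unadjusted p under 0.05 1 was lower (CD68) and 1 higher, where 8.79% of all genes were lower and 7.22% higher. The median log2 fold change was 0.03, and 18 of the 20 implied intervals held 0. NR1H3, the oxysterol receptor LXR alpha, was the one at an unadjusted p under 0.05 with a positive value (log2 fold change 0.18, adjusted p 0.294 per the authors' deposited table). In the 15 genes with at least 5 log2 CPM, the log2 fold changes lay between -0.28 and 0.29.

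A pair of Kupffer genes lay lower, with wide errors, and both are named after their values were seen. The C-type lectin CLEC4F, a Kupffer cell receptor in mice, had a log2 fold change of -0.66 with an implied 95% interval from -1.73 to 0.41 per the authors' deposited table. SPIC, a transcription factor of iron-recycling macrophages, had a log2 fold change of -0.67 (interval -1.62 to 0.28) at an average of -1.88 log2 CPM per the authors' deposited table. Neither interval excluded 0.

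Among 17 measured genes of macrophages in general (of 18 listed), 0 passed an adjusted p of 0.05 and 2 were lower at an unadjusted p under 0.05, a share near the 8.79% of all genes. The list median was -0.06, and no log2 fold change lay below -1. CTSS, a lysosomal protease of antigen-presenting cells, had a log2 fold change of -0.37 (adjusted p 0.126) per the authors' deposited table. The lysosomal protease CTSB followed with -0.28 and an adjusted p of 0.164, and the inhibitory receptor SIRPA had -0.12 with an adjusted p of 0.438 per the authors' deposited table. TYROBP, the adaptor that carries the TREM2 signal, had a log2 fold change of -0.18 (implied SE 0.09, adjusted p 0.348) per the authors' deposited table. TYROBP thus differed far less than TREM2 itself.

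Genes of lipid-associated macrophages, the cells in which TREM2 is best known, held the values nearest to TREM2. Of the 18 measured genes (of 19 listed), 10 were lower and 0 higher at an unadjusted p under 0.05 per the authors' deposited table, where 8.79% of all genes were lower. At an adjusted p under 0.05 none passed, while 7 had an adjusted p under 0.10, as did 2.77% of all genes. The list median was -0.26, and 5 of the 18 genes had a log2 fold change below -1, as did 1.55% of all genes. No gene of the Kupffer list or of the general macrophage list lay below -1. Such genes were not particular to this list: the bile duct, TREM family, monocyte, dendritic cell and scavenger receptor lists held some too. The bile duct list had a lower median (-0.75), with 6 of its 8 measured genes lower at an unadjusted p under 0.05. At an adjusted p under 0.10 it held 3, all lower, and SPP1, which stands in both lists, is among them. The list was written with earlier results of these data known, among them those of TREM2 and SPP1, so the counts are a description.

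GPNMB, a lysosomal glycoprotein of lipid-loaded macrophages, had the most negative value of the list. Its log2 fold change was -2.62 (implied 95% interval -3.91 to -1.33, adjusted p 0.0599) per the authors' deposited table, 6.15-fold lower in SLICK. The secreted phosphoprotein SPP1 (osteopontin) had a log2 fold change of -2.44 (interval -3.64 to -1.23, adjusted p 0.0599) per the authors' deposited table. SPP1 is made by bile duct cells too and stands in both lists. The fatty acid binding protein FABP5 had a log2 fold change of -1.47 (adjusted p 0.0649) per the authors' deposited table. The tetraspanin CD9 had a smaller log2 fold change of -0.68 but the smallest p of the list, with an adjusted p of 0.0511 per the authors' deposited table. CD9 passed at 0.0473 where the p-values were adjusted anew over the 14161 genes.

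A further 3 genes of the list, named after their values were seen, also lay under an adjusted p of 0.10. The galectin LGALS3 had a log2 fold change of -1.85 (adjusted p 0.0683), the lipoprotein lipase LPL of -0.72 (adjusted p 0.0887) and the macrophage elastase MMP12 of -2.09 (adjusted p 0.0987) per the authors' deposited table. MMP12 averaged -1.84 log2 CPM and so rests on few reads. The other end of the list was level: the 8 genes at an unadjusted p of 0.05 or above had log2 fold changes from -0.24 to 0.23. Among these, also named after their values were seen, were the tetraspanin CD63 at 0.01 and the apolipoprotein APOE at 0.12 per the authors' deposited table. Hepatocytes express both too, and the cell source of the genes with large falls was not tested either.

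**Figure D2:**
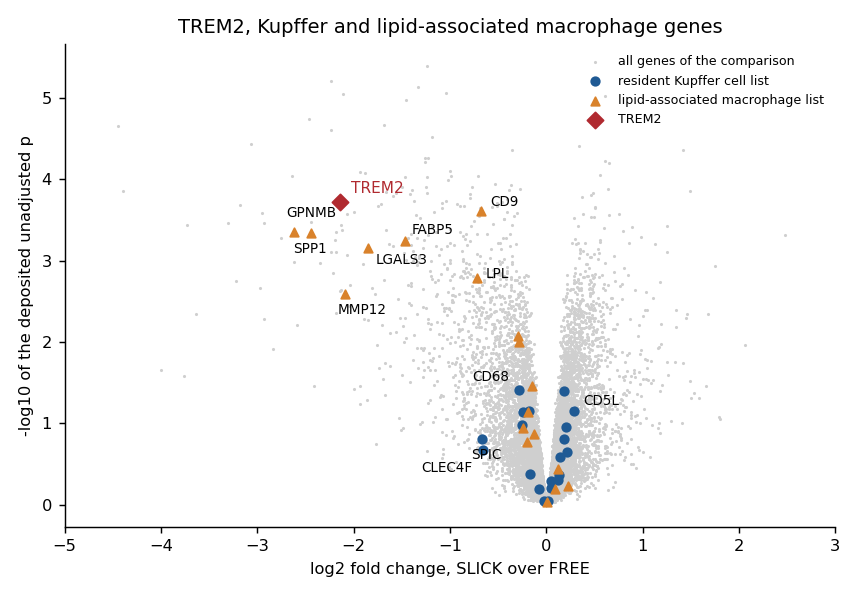
Each point is a gene of the comparison, with the log2 fold change of SLICK over FREE on the horizontal axis and -log10 of the deposited unadjusted p on the vertical axis. TREM2 at -2.14 lies among GPNMB (-2.62), SPP1 (-2.44), MMP12 (-2.09) and LGALS3 (-1.85), and the Kupffer list lies between -0.67 and 0.29.

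TREM2 and the lipid-associated genes with large falls had large implied errors for their level. The implied standard error of TREM2 (0.46) was 2.86 times the median (0.16) of the 1065 genes within 0.5 log2 CPM of it. For the 5 lipid-associated genes with a log2 fold change below -1, this ratio ran from 1.94 to 6.79, with GPNMB at the top. The error is the size of the fold change over the square root of F, so a large fall with a moderate F gives a large error. TREM2 and these 5 genes were taken for their large falls, so their likeness in error is not a separate result. Among the other 9 members it ran from 0.947 for C1QA to 2.46 for TIMD4. CLEC4F had a ratio of 5.60, the highest of the Kupffer list, whose median was 1.34. A high ratio means only a large implied error of the fold change for that average level. Values of single libraries were not used, so whether the animals varied more in these genes was not tested. Of the 71 genes at an adjusted p under 0.05, 6 had an implied standard error at least as large as that of TREM2, TREM2 included.

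**Figure D3:**
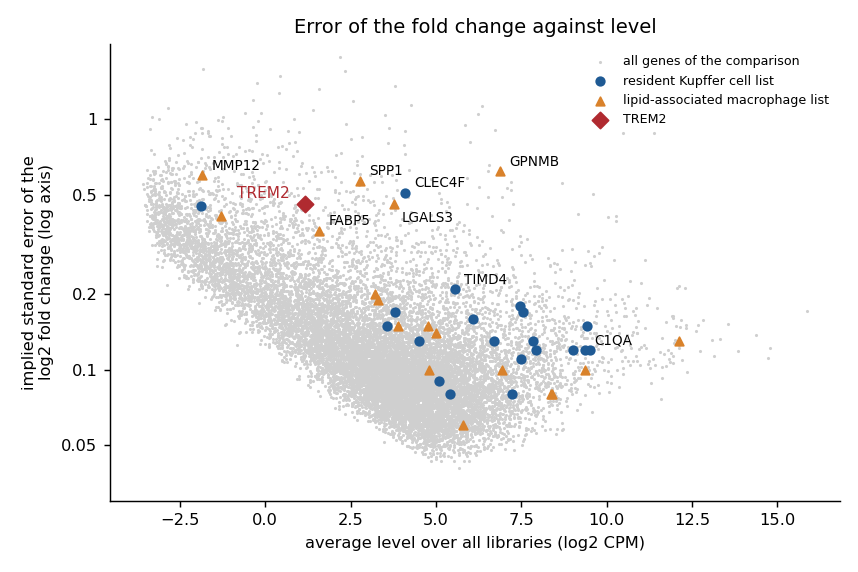
Implied standard error of the log2 fold change (log axis) against the average level in log2 CPM, 1 point per gene. TREM2 (0.46) and GPNMB (0.62) lie above most genes of their level, and C1QA (0.12) lies at the median of its own.

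The other receptors of the TREM family, encoded beside TREM2, also had negative values but none passed. TREML1, a receptor best known from platelets, lies 3.7 kb away and had a log2 fold change of -1.62 (implied 95% interval -2.76 to -0.49, adjusted p 0.145) per the authors' deposited table. TREM1, which amplifies inflammation in neutrophils and monocytes, had a log2 fold change of -1.30 (interval -2.27 to -0.32, adjusted p 0.174) per the authors' deposited table. TREML2, at 12.8 kb, had a log2 fold change of -0.51 (interval -1.02 to -0.01, adjusted p 0.318) per the authors' deposited table. TREML1 and TREM1 averaged -3.33 and -1.04 log2 CPM per the authors' deposited table, so both rest on few reads. Beyond this cluster, NFYA, OARD1 and APOBEC2 had log2 fold changes of -0.03, -0.01 and 0.10 per the authors' deposited table, all with intervals that held 0. The negative values within 100 kb of TREM2 were thus those of the TREM receptors, apart from the near-zero values of NFYA and OARD1.

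**Figure D4:**
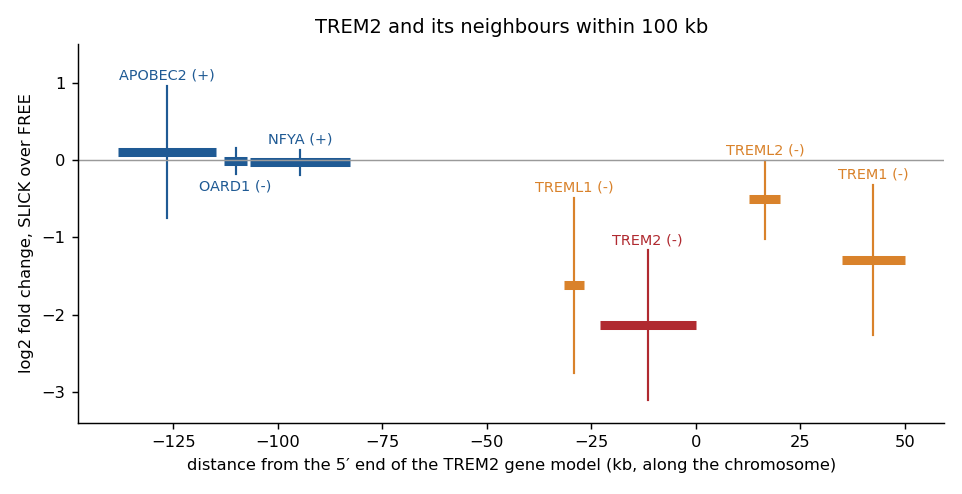
Gene models within 100 kb of TREM2, placed by their distance in kb from its 5′ end, with the strand in brackets. Horizontal bars show the extent of each gene at its log2 fold change, and vertical lines the implied 95% interval. The TREM receptors lie at -0.51 to -2.14, and NFYA, OARD1 and APOBEC2 lie between -0.03 and 0.10.

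Downstream of the TREM receptors little differed. In the list of TREM family and adaptor signalling, 17 of 20 genes were measured, and 0 passed an adjusted p of 0.05. At an unadjusted p under 0.05, 3 were lower, the TREM receptors just named, and 1 was higher, where 8.79% of all genes were lower and 7.22% higher. The higher gene was HCST, the adaptor DAP10, with a log2 fold change of 0.43 (adjusted p 0.283) per the authors' deposited table. Over the 17 genes the median was -0.03. Of the 7 measured genes of the macrophage growth factor axis (of 9 listed), 0 passed an adjusted p of 0.05 and 1, CSF1, was lower at an unadjusted p under 0.05, against the same 8.79% of all genes. CSF1, a ligand of CSF1R, had a log2 fold change of -0.23 (adjusted p 0.214) per the authors' deposited table. The other ligand, IL34, had -0.45 with an adjusted p of 0.586 per the authors' deposited table. CSF1 was thus on the negative side and CSF1R on the positive side, and neither passed.

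Across the loci of the members, 28 other genes of the comparison lie within 100 kb, and 0 passed an adjusted p of 0.05 in either direction. The window was set after the values were seen. At an unadjusted p under 0.05, 8 were lower and 2 higher per the authors' deposited table, where 8.79% of all genes were lower and 7.22% higher. The other chains of the C1q complex, C1QB and C1QC, lie beside C1QA and had log2 fold changes of 0.14 and 0.18 per the authors' deposited table. The fold changes of the 3 chains thus lay within 0.06 log2 units of each other, all with intervals that held 0. On the far side of CD163 lie the C-type lectins CLEC4E and CLEC4D, receptors for microbial glycolipids, with log2 fold changes of -0.95 and -0.97 per the authors' deposited table (adjusted p 0.164 and 0.246). CD163 itself did not share their negative values. The gene ENSBTAG00000053777, 4.3 kb from CD5L, had a log2 fold change of 0.79 (adjusted p 0.0599) per the authors' deposited table, on the same side as CD5L at 0.29. FCRL1, at 50.7 kb from CD5L, lay on the other side at -0.20 (adjusted p 0.817) per the authors' deposited table.

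A scavenger receptor outside the members passed as TREM2 did. OLR1, the lectin-like receptor for oxidised LDL, fell by 1.56 log2 units (implied 95% interval -2.25 to -0.87, adjusted p 0.0486) per the authors' deposited table. It was the 1 of 13 measured scavenger receptors (of 14 listed) to pass, with 0 higher, where 0.41% of all genes were lower. At an unadjusted p under 0.05, 2 were lower and 1 higher, where 8.79% of all genes were lower and 7.22% higher. The list median was -0.15. STAB1, an endothelial and macrophage clearance receptor, had a log2 fold change of 0.29 (adjusted p 0.198) per the authors' deposited table. CXCL16 and COLEC12 had log2 fold changes of -0.24 and -0.42 (adjusted p 0.217 and 0.337) per the authors' deposited table. The 15 measured genes of phosphatidylserine and apoptotic cell uptake (of 18 listed) had a median of 0.06, 0 passed in either direction and 1, STAB1, was higher at an unadjusted p under 0.05, as were 7.22% of all genes. Their lowest p after STAB1 belonged to LRP1 and PROS1, with log2 fold changes of 0.20 and 0.18 per the authors' deposited table.

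Markers of other blood and liver cells had negative values beside TREM2 in some lists, and their part in its result was not tested. Of 13 measured monocyte genes (of 14 listed), 11 were negative, 3 were lower at an unadjusted p under 0.05 and the median was -0.18. Among all genes, 8.79% were lower and 7.22% higher at that threshold. The matrix proteoglycan VCAN had a log2 fold change of -1.03, the lysozyme LYZ of -0.89 and the calcium-binding S100A12 of -1.14, with adjusted p from 0.157 to 0.260 per the authors' deposited table. Of 7 measured neutrophil genes (of 12 listed), 6 were negative, 3 were lower at an unadjusted p under 0.05 and the median was -0.40. The chemokine receptors CXCR1 and CXCR2 had log2 fold changes of -0.64 and -0.47 and lactoferrin (LTF) of -0.65, with adjusted p from 0.212 to 0.307 per the authors' deposited table. Of 11 dendritic cell genes, 2 were lower and 2 higher at an unadjusted p under 0.05, with a median of -0.11. The lipid-presenting CD1E had a log2 fold change of -1.20 there, against 0.51 for CLEC9A of cross-presenting dendritic cells per the authors' deposited table. BATF3, with the smallest p of the list, had 0.33 and CLEC10A -0.60 per the authors' deposited table. None of these 3 lists had a gene past an adjusted p of 0.05.

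Lymphocyte and endothelial lists were nearly level, with medians of 0.10 over 17 T and NK cell genes, 0.01 over 11 B and plasma cell genes and 0.10 over 12 sinusoidal endothelial genes. Stellate cell and fibroblast genes had a median of -0.05 over 11 genes. At an unadjusted p under 0.05 there were 0 T and NK cell genes, 2 lower B and plasma cell genes, 1 higher endothelial gene and 2 lower stellate cell genes, where 8.79% of all genes were lower and 7.22% higher. All 8 measured bile duct markers (of 9 listed) had negative values, with 6 lower at an unadjusted p under 0.05 and a median of -0.75. CLDN4, a tight junction protein of bile duct cells, had a log2 fold change of -1.67 (adjusted p 0.0599) per the authors' deposited table. KRT7 and SOX9 had log2 fold changes of -1.03 and -0.80 (adjusted p 0.0658 and 0.114) per the authors' deposited table. SPP1, given above, stands in this list too. Hepatocyte markers had a median of 0.25, with 5 of 12 higher and 0 lower at an unadjusted p under 0.05. The smallest p among them was that of CYP2E1, with a log2 fold change of 0.81 (adjusted p 0.0847) per the authors' deposited table. None of these 6 lists had a gene past an adjusted p of 0.05.

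**Figure D5:**
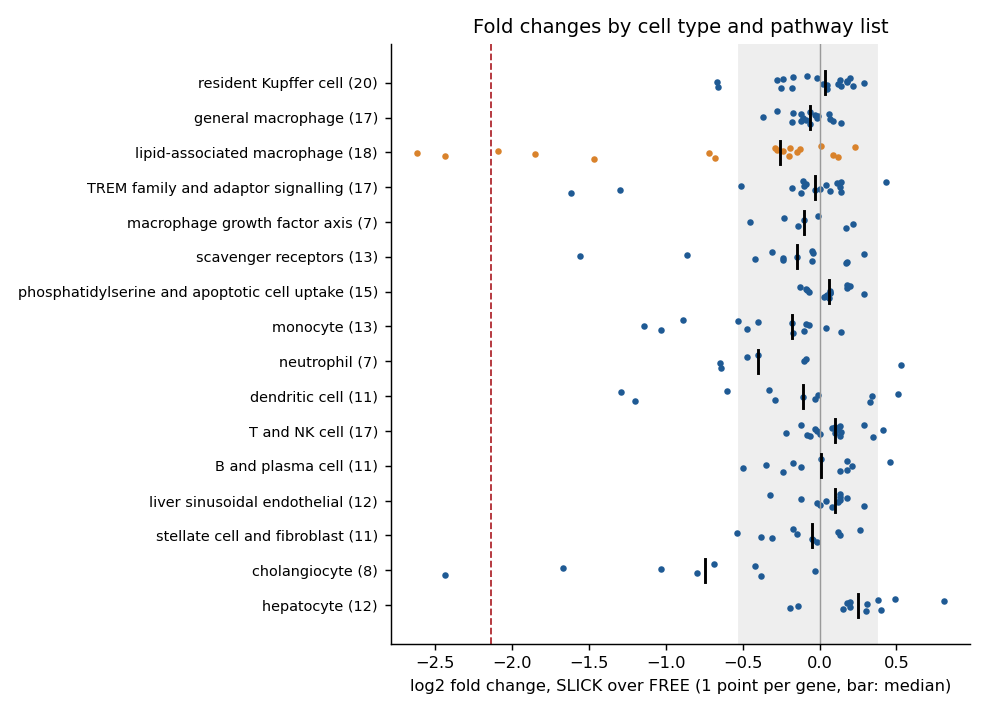
Log2 fold change of SLICK over FREE for each measured gene, 1 row per list with the number of genes in brackets. Black bars are medians, the grey band holds the middle 90% of all genes (-0.52 to 0.37) and the dashed line marks TREM2 at -2.14. The lipid-associated macrophage and cholangiocyte lists reach below -2, and the Kupffer list does not go below -0.67.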

How the data were processed

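Liver RNA was sequenced from TruSeq or SMARTer libraries, per the labels' protocols. Tools listed in the submitters' processing notes are edgeR, Subread with featureCounts, and HISAT2 2.1.0, with the ARS-UCD1.2 build. The SMARTer table was counted with featureCounts 1.6.2 on Ensembl release 100 genes, by strand and at a mapping quality of at least 10, per the file headers. The authors deposited, per gene, p-values (unadjusted and adjusted), an F score, an average log2 CPM and a log2 fold change. Gene lengths and coordinates are another deposited value. The 70 per-library columns match no sample label and were not used, so depth per sample was not used. The comparison table and the TruSeq counts each name 18 libraries, 17 of them in both.

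Repeat rows (85 of 14246) were dropped, leaving 14161 genes. The standard error was implied as the size of the log2 fold change over the square root of F. Intervals used 18.7 denominator degrees of freedom, which F and p imply alike in 500 genes. They are approximate, since a prior count may shrink the deposited fold change. Levels per kb are log2 CPM minus log2 of the length in kb. The planned count fits and sequence features were not run. Python 3.11.15, numpy 2.4.6, pandas 2.3.3, scipy 1.17.1 and matplotlib 3.10.9 were used. The error step was run on simulated data, which checks its arithmetic only and not the effect of a prior count.

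The members and the 16 other lists (184 further measured genes) were chosen with earlier results of these data known. The genes named are the members and, for each list, none, some or all of the 4 genes with the smallest p, unless stated otherwise. Any listed gene past an adjusted p of 0.05 is named too. ALB is named only as a tissue marker. No values per animal mean that precision is known only through the authors' p.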

Additional observations from a re-analysis of the deposited data

How the results depend on the processing

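The alternatives run all reused the authors' deposited p and fold change of TREM2, so they are not an independent check of its result. With Benjamini-Hochberg over the 14161 genes, the adjusted p of TREM2 was 0.0452. Over genes that averaged 0 log2 CPM or more it was 0.0451. Both values are lower than the deposited 0.0486. The centred fold change was -2.14. The 10 members gave 1 call, or 2 (TREM2 and CD68, both lower) at an unadjusted p under 0.05. No member's direction reversed, and the median shift of all genes was -0.007. The 184 further genes of the other lists gave 1 call (OLR1, lower), where 0.41% of all genes were lower. They gave 2 with either recomputed adjustment (OLR1 and CD9). At an adjusted p under 0.10 they gave 11 (10 lower, 1 higher), where 2.77% of all genes passed. At an unadjusted p under 0.05 they gave 44 (34 lower, 10 higher), where 8.79% of all genes were lower and 7.22% higher. Leaving out replicates, DESeq2 size factors, unfiltered fits and the shorter promoter window were not run. No paired analysis was possible because the library columns could not be matched to samples. Genotype and sire are partly confounded, and the animals behind each value are unknown.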
